A study of Mus musculus with 4 samples.

Results

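The genes described here encode the laminins and other noncollagenous glycoproteins of the extracellular matrix, and they were followed in 2 mesothelia of the mouse, the cell sheets that cover the organs and line the walls of the body cavities. Their members are 54 listed gene symbols, each read from the array probe that the platform annotation pairs with that symbol alone, and 52 of them were found among 19938 genes measured in all. Fbn1 and Efemp2 had no such probe and are not analysed here. Visceral mesothelium came from the omentum and parietal mesothelium was teased from the skeletal muscle of the body wall, with 2 arrays for each tissue. Both came from untreated adult Wt1-cre;Rosa26ReYFP mice on a c57bl/6 background, in which Cre made under control of Wt1, a gene of mesothelial cells, turns on a yellow fluorescent protein in these cells and their descendants. The RNA was taken from pieces of native tissue, and no sorting of cells before the extraction is described. The study judged from the fluorescent marker that nearly all of the input came from mesothelial cells. That estimate was not tested here. The arrays are labelled biological replicates without the animals behind them, so that a p-value reflects only how far these arrays differ among themselves, and 2 arrays per tissue limit the precision.

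Laminins are cross-shaped trimers of an alpha, a beta and a gamma chain that assemble into the sheet on which an epithelium rests, the basement membrane, where nidogens and perlecan tie them to the collagen network. Fibronectin, elastin, the microfibrils with their associated proteins, and the fibulins build the fibres of the connective tissue underneath. A further class, the matricellular proteins such as thrombospondins and tenascin, bears little load and modulates how cells attach to the rest. Mesothelial cells rest on a thin basement membrane over such connective tissue and are themselves able to make much of this matrix.

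Matrix glycoprotein genes differed between the mesothelia in both directions. The values are log2 signals after RMA, a normalization that corrects background and equalizes the arrays, and each difference is visceral minus parietal on that scale. A difference passed the test at a Benjamini-Hochberg adjusted p under 0.05 over all genes, from limma, and a fold of at least 1.5. The spread that limma uses is pooled over genes, so that each standard error (SE) and p-value also draws on the other genes. Of the 52 measured members, 20 passed, with 11 in favour of visceral and 9 in favour of parietal mesothelium. Over all genes 9.60% passed, 5.22% in favour of visceral and 4.39% in favour of parietal mesothelium, against 38.5% of the members. The methods' t-test, with the same adjustment and fold limit, passed 0 members and 0 of all genes, and 22 members had an unadjusted p under 0.05 in it against 33 in limma. The study names one-way ANOVA with these thresholds and reports many differing probes, which this test with 1 probe per gene did not reproduce. Tested by limma's treat against a fold of 1.5, 13 members passed, 8 on the visceral and 5 on the parietal side, and Lama4, Lama5, Egflam, Vtn, Ltbp1, Fbln1 and Matn2 did not. The members were mostly bright, since 42 exceeded the median gene in signal, and 14.1% of the genes above that median passed in a fit of their own. With p-values adjusted over all probes instead of 1 per gene, 6.06% of probes passed and 16 members did. A set of 9 members (Eln, Emilin2, Fbln1, Fbln5, Fn1, Lama2, Lama5, Lamc3 and Vit) had already been picked on these same arrays as examples of differing genes, and they are not independent evidence. Among the other 43 members 11 passed, which is 25.6%, 5 on the visceral and 6 on the parietal side. These members too were chosen with earlier results of these data known, so this share is a description. The median difference was -0.08 over the members and 0.0015 over all genes, and the differences of the members lay on both sides of 0. Their median size of difference, sign aside, was 0.445 against 0.135 over all genes. The arrays of the tissues did not overlap for 40 members, or 76.9%, against 56.3% of all genes.

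**Figure D1:**
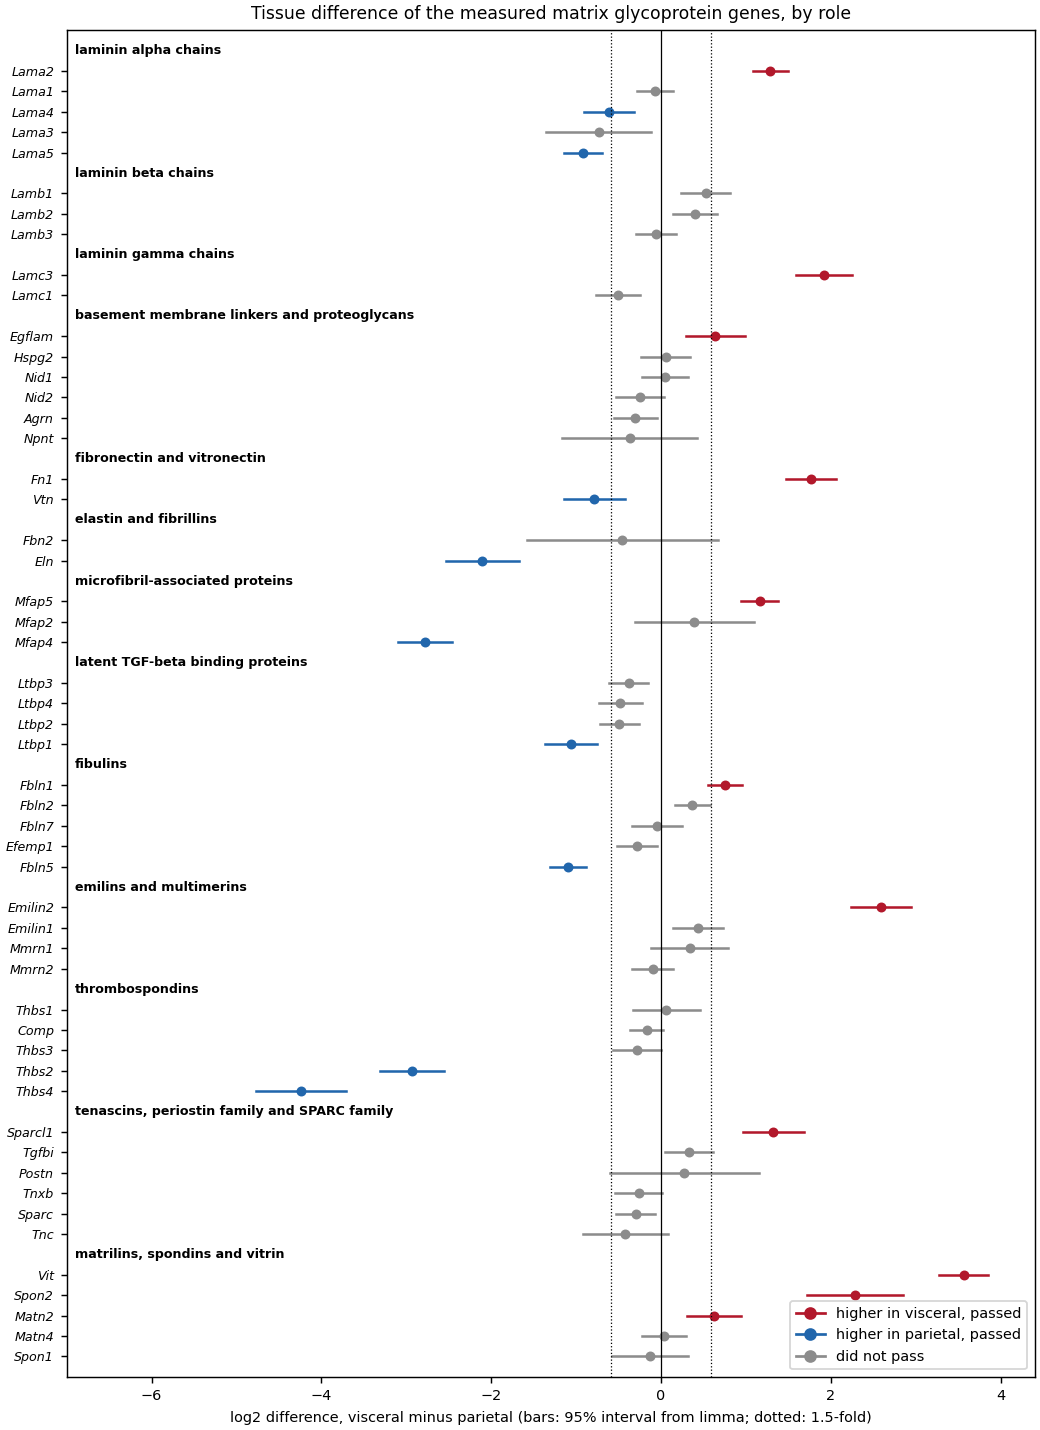
Log2 difference, visceral minus parietal (x axis), of the 52 measured genes, grouped by role (y axis). Points are limma estimates with 95% intervals, red where higher in visceral and blue where higher in parietal mesothelium with the test passed, grey where not passed; the estimates run from 3.57 for Vit to -4.24 for Thbs4.

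The arrays of a tissue resembled each other closely, Pearson's r across all probes being 0.992 for the visceral pair and 0.993 for the parietal pair, while arrays of different tissues gave 0.965 to 0.969. Probes are not independent replicates. Genes that mark mesothelium were measured in both tissues, all 12 of them above the median gene in signal. Of these, 7 favoured parietal mesothelium and 1, Wt1 (0.84), favoured visceral mesothelium. Markers of other cell types moved with the tissues. All 16 skeletal muscle markers passed as higher in parietal mesothelium. On the visceral side, 14 of 15 measured markers of macrophages and dendritic cells and 7 of 8 mast cell markers passed. The share of all genes that passed was 9.60%. In such tissue samples, more cells of a type and more RNA per cell cannot be told apart.

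Among the laminin chains, alpha chains passed in both directions and a gamma chain on the visceral side, while no beta chain passed. Of 10 chains, 2 passed on the visceral side and 2 on the parietal side, or 40% beside 9.60% of all genes. Of those that passed, Lama2, Lama5 and Lamc3 were examples already picked on these arrays, so this share is not independent evidence. Lama2, the alpha chain of the laminins around muscle and mesenchymal cells, had log2 signals of 11.56 and 11.53 in visceral against 10.22 and 10.30 in parietal mesothelium. Its arrays lay 0.04 apart in visceral and 0.08 in parietal mesothelium, and the difference was 1.29 (SE 0.08, adjusted p = 0.000532 from limma), or 2.44-fold higher. Lama5, an alpha chain of many epithelial and endothelial basement membranes, ran the other way at 7.96 and 8.01 in visceral against 8.84 and 8.97 in parietal mesothelium. Its difference was -0.92 (SE 0.09, adjusted p = 0.00209 from limma), or 1.89-fold lower, and it did not pass against a fold of 1.5 by treat (adjusted p = 0.119). Lama4, an alpha chain of vessels, muscle and fat, was likewise higher in parietal mesothelium, at 10.36 and 10.16 in visceral against 10.98 and 10.76 in parietal mesothelium. That difference of -0.61 (SE 0.12, adjusted p = 0.0228 from limma) was just past the fold limit. It did not pass without parietal replicate 1 (-0.50, adjusted p = 0.0707) or without visceral replicate 2 (-0.52, adjusted p = 0.0953). Lama3, the alpha chain of laminins that anchor stratified epithelia, had the wider spread of 8.46 and 8.10 in visceral against 9.38 and 8.66 in parietal mesothelium, and its difference of -0.74 (95% interval -1.36 to -0.11) did not pass (adjusted p = 0.126). On leaving out each array it ran from -1.10 to -0.38, and it passed without parietal replicate 2 (-1.10, adjusted p = 0.0055). Lama1, mostly an embryonic chain, differed by -0.07 (-0.28 to 0.14).

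A promoter sequence was on hand for Lama2. It is shown because Lama2 alone, among the genes that passed as higher in visceral mesothelium, had a single listed start. It holds the 250 bases before the start of the gene on the minus strand, at chr10:27616943-27617192 of GRCm38.p6, from RefSeq. Capitals mark matches, on either strand, to 5 motifs that were searched: the TATA box TATAAA, the GC box GGGCGG, the MCAT element CATTCC, the AP-1 site TGANTCA and the CArG box. The last is the site that serum response factor binds, and it is the only match in this window.
Lama2: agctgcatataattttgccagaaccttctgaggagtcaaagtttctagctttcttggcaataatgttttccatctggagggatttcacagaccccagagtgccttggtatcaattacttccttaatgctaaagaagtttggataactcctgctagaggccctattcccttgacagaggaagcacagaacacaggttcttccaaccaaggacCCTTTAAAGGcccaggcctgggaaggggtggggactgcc
A CArG box occurred in 1.47% of the same windows before the 32851 starts in the RefSeq promoter table, and in 1 of 47 windows of the members, that of Lama2. Of the measured members 33 had an entry in that table, 10 of them among those that passed. A match is a run of letters and not a measured binding site.

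The beta and gamma chains complete the trimers. Lamc3, a gamma chain with a restricted distribution, was the laminin gene with the largest difference, at 10.13 and 10.44 in visceral against 8.28 and 8.45 in parietal mesothelium. The 2 tissues were separated by far more than the spread between arrays, with a difference of 1.92 (SE 0.13, adjusted p = 0.000645 from limma), or 3.79-fold higher. Lamc1, the gamma chain of most laminins, had 10.72 and 10.71 in visceral against 11.34 and 11.11 in parietal mesothelium and passed the p threshold but not the fold limit, at -0.51 (SE 0.10, adjusted p = 0.0291 from limma). Lamb1, the beta chain of many early and vascular laminins, had 10.30 and 10.08 in visceral against 9.76 and 9.57 in parietal mesothelium, and its difference of 0.53 (SE 0.12, adjusted p = 0.0361 from limma) also fell short of the fold limit. It passed without visceral replicate 2 (0.64, adjusted p = 0.0492) and without parietal replicate 1 (0.62, adjusted p = 0.0351), and Lamc1 passed without parietal replicate 2 (-0.62, adjusted p = 0.022). Lamb2, its counterpart in kidney and synaptic basement membranes, differed by 0.40 (adjusted p = 0.0618), and Lamb3, the partner of Lama3, by -0.06 (-0.29 to 0.18). The signals of different chains cannot be set against each other on this array, so that trimer amounts were not derived.

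Of 6 linkers of the basement membrane, 1 passed, or 16.7% beside 9.60% of all genes, and most lay close between the tissues. Egflam, or pikachurin, a ligand of dystroglycan at photoreceptor synapses, had 7.10 and 7.46 in visceral against 6.56 and 6.72 in parietal mesothelium. It was dim, with every array under the median gene signal of 7.73, and the difference was 0.64 (SE 0.14, adjusted p = 0.0362 from limma). Without visceral replicate 2 it was 0.46 (adjusted p = 0.0951) and without parietal replicate 1 it was 0.56 (adjusted p = 0.0911), and in neither case did it pass. The nidogens, which bridge laminin and type IV collagen, were close between the tissues. Nid1 had 11.86 and 11.86 in visceral against 11.93 and 11.69 in parietal mesothelium, a difference of 0.05 with an interval of -0.22 to 0.32, and Nid2 differed by -0.24 (-0.53 to 0.04). Hspg2, or perlecan, the main heparan sulfate proteoglycan of basement membranes, differed by 0.06 (-0.23 to 0.34) and Agrn, or agrin, by -0.30 (-0.56 to -0.05). These 4 intervals lie inside the 1.5-fold limits in both directions. Npnt, or nephronectin, a ligand of the integrin with the alpha-8 chain, had 9.92 and 9.15 in visceral against 10.25 and 9.55 in parietal mesothelium. Its arrays overlapped between tissues and the interval of -1.16 to 0.43 around -0.37 leaves a change beyond 1.5-fold possible.

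Of the 2 adhesive glycoproteins that also circulate in plasma, fibronectin was higher in visceral and vitronectin in parietal mesothelium. Fn1 had 13.23 and 12.94 in visceral against 11.35 and 11.29 in parietal mesothelium, a difference of 1.77 (SE 0.12, adjusted p = 0.000613 from limma) or 3.41-fold higher. Fibronectin is the substrate on which the study compared the adhesion of cells from both tissues. Vtn was dim, at 6.07 and 6.04 in visceral against 6.64 and 7.05 in parietal mesothelium, and its difference was -0.78 (SE 0.14, adjusted p = 0.0201 from limma). It did not pass on leaving out any array but parietal replicate 1. The values were -0.80 without visceral replicate 1 (adjusted p = 0.0768), -0.77 without visceral replicate 2 (adjusted p = 0.0887) and -0.58 without parietal replicate 2, which was under the fold limit. The macrophage and dendritic cell markers, a cell class that also makes fibronectin, moved with Fn1, their summed linear signal being 32810 to 35038 on the visceral and 6447 to 7574 on the parietal arrays. Their part in the difference of Fn1 was not tested.

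**Figure D2:**
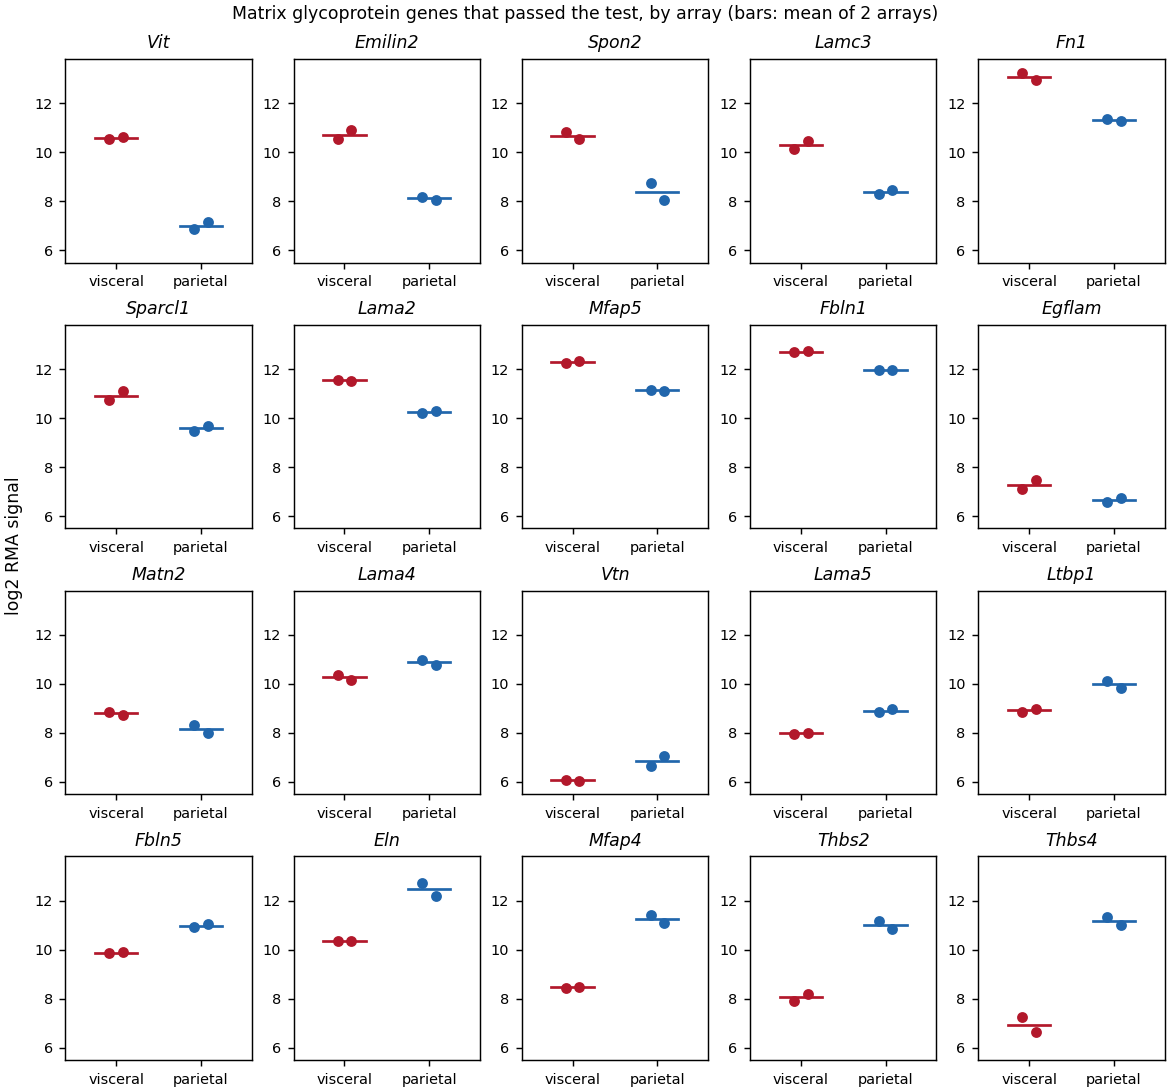
Log2 RMA signal (y axis) of the 20 genes that passed the test, in visceral (red, left) and parietal mesothelium (blue, right). Each point is 1 array and each bar the mean of 2; panels run from the largest visceral to the largest parietal excess, and in no panel do the arrays of the tissues overlap.

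Genes of the elastic fibre were higher in parietal mesothelium in more cases than in visceral mesothelium. Of 14 measured genes of elastin, fibrillin, microfibril-associated proteins, latent TGF-beta binding proteins and fibulins, 4 passed as higher in parietal and 2 as higher in visceral mesothelium, or 42.9% beside 9.60% of all genes. Of those that passed, Eln, Fbln1 and Fbln5 were examples already picked on these arrays, so this share is not independent evidence. The median difference of the 14 genes was -0.42 against 0.0015 over all genes. Elastin itself, Eln, the core of the fibre, had 10.37 and 10.34 in visceral against 12.72 and 12.20 in parietal mesothelium. Both parietal arrays exceeded both visceral arrays by far more than either pair differed, and the difference was -2.10 (SE 0.17, adjusted p = 0.00118 from limma), or 4.3-fold lower. Mfap4, a fibrinogen-like protein found along elastic fibres, had 8.45 and 8.48 in visceral against 11.41 and 11.07 in parietal mesothelium, a difference of -2.78 (SE 0.13, adjusted p = 0.000182 from limma) or 6.85-fold lower. Mfap5 and Mfap2 encode the 2 small microfibril-associated glycoproteins, which bind fibrillin. Mfap5 went against the direction of elastin, at 12.23 and 12.34 in visceral against 11.16 and 11.09 in parietal mesothelium, with a difference of 1.16 (SE 0.09, adjusted p = 0.000914 from limma), while Mfap2, at 11.73 and 11.15 in visceral against 11.39 and 10.70 in parietal mesothelium, had overlapping arrays and an interval of -0.30 to 1.09. Fbn2, the fibrillin of developing tissues, had 9.74 and 9.11 in visceral against 10.56 and 9.20 in parietal mesothelium. Its spread within the parietal arrays was the widest of any member, and its difference of -0.46 (-1.58 to 0.67) leaves its direction unsettled. It was -1.14 without parietal replicate 2, where it passed (adjusted p = 0.0215), and 0.23 without parietal replicate 1.

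The latent TGF-beta binding proteins hold the growth factor in the matrix or, as Ltbp4 does, help elastin assemble. All 4 had lower signals in visceral mesothelium on every array, while the arrays of the tissues did not overlap, in either direction, for 56.3% of all genes. Of the 4, 1 passed, or 25% beside 9.60% of all genes. Ltbp1 had 8.85 and 8.98 in visceral against 10.12 and 9.83 in parietal mesothelium, with a difference of -1.06 (SE 0.12, adjusted p = 0.00409 from limma). It did not pass by treat (adjusted p = 0.109). Ltbp2 and Ltbp4 passed the p threshold but not the fold limit, at -0.49 (adjusted p = 0.0216) and -0.48 (adjusted p = 0.0328). Ltbp3 differed by -0.38 (adjusted p = 0.0514).

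The fibulins, short linkers of elastic fibres and basement membranes, were split. Fbln5, which is needed for elastic fibre formation, was higher in parietal mesothelium, at 9.84 and 9.92 in visceral against 10.93 and 11.03 in parietal mesothelium. Its difference was -1.10 (SE 0.09, adjusted p = 0.00106 from limma), the same direction as elastin. Fbln1 was higher in visceral mesothelium, at 12.70 and 12.73 in visceral against 11.95 and 11.97 in parietal mesothelium. Its arrays lay 0.04 apart in visceral and 0.02 in parietal mesothelium. The difference of 0.75 (SE 0.08, adjusted p = 0.00299 from limma), or 1.69-fold higher, passed although it was small. By treat it did not pass (adjusted p = 0.659). Fbln2 differed by 0.37 (adjusted p = 0.0367) and its interval of 0.17 to 0.57 stays under the fold limit. Efemp1, also called fibulin-3, gave -0.28 (-0.52 to -0.05) and Fbln7 -0.05 (-0.34 to 0.25).

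Of the emilins and multimerins, which share a cysteine-rich domain at one end, Emilin2 stood out. It had 10.52 and 10.89 in visceral against 8.18 and 8.05 in parietal mesothelium, a difference of 2.59 (SE 0.14, adjusted p = 0.000312 from limma) or 6.03-fold higher. Emilin1, the paralogue found at the surface of elastin, had 8.54 and 8.45 in visceral against 8.20 and 7.92 in parietal mesothelium, and its difference of 0.43 did not pass (adjusted p = 0.0702). Mmrn2, a multimerin of endothelial cells, differed by -0.10 (-0.34 to 0.14), beside 10 endothelial markers with a median difference of 0.01. Of these markers, Esam (-0.69) and Cdh5 (-0.60) passed as higher in parietal mesothelium and the other 8 did not pass. That is a share of 20% beside 9.60% of all genes. Mmrn1, the multimerin of platelets and endothelium, was dim and differed by 0.34 (-0.11 to 0.79), passing only without visceral replicate 2 (0.61, adjusted p = 0.0359).

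The thrombospondins held the largest differences in favour of parietal mesothelium. Thbs4, a pentameric thrombospondin of tendon, muscle and nerve, had 7.23 and 6.65 in visceral against 11.35 and 11.01 in parietal mesothelium, a difference of -4.24 (SE 0.21, adjusted p = 0.000251 from limma) or 18.9-fold lower. Thbs2, a trimeric one that restrains the growth of vessels, had 7.92 and 8.20 in visceral against 11.16 and 10.82 in parietal mesothelium, a difference of -2.93 (SE 0.15, adjusted p = 0.000267 from limma) or 7.62-fold lower. The other 3 did not pass. Thbs1, the closest relative of Thbs2, had 9.50 and 9.06 in visceral against 9.30 and 9.15 in parietal mesothelium, so that its arrays overlapped between the tissues, and the interval of -0.34 to 0.46 around 0.06 lies inside the fold limits. Thbs3 differed by -0.28 (-0.57 to 0.00) and Comp, the cartilage member of the pentameric group, by -0.17 (-0.36 to 0.03). The skeletal muscle markers moved with Thbs4, with a summed linear signal of 2973 to 3248 on the visceral and 75174 to 96472 on the parietal arrays and a median difference of -5.04. Every member that passed as higher in parietal mesothelium shared this direction. Lama2, whose chain is also found around muscle, went the other way at 1.29. No muscle marker can be called absent from the visceral arrays, since RMA values have no zero. Their part in the difference of Thbs4 was not tested.

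The windows before the starts of the 2 thrombospondin genes are shown because these genes had the largest parietal excess, and are marked as for Lama2. Thbs4 lies on the minus strand with its window at chr13:92794819-92795068 and Thbs2 on the minus strand with its window at chr17:14694263-14694512, both of GRCm38.p6.
Thbs4: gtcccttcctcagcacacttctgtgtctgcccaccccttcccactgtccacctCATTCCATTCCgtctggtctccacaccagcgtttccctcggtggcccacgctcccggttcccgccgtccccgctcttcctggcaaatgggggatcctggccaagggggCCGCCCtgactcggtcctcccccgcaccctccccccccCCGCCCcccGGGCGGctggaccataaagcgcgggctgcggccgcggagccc
Thbs2: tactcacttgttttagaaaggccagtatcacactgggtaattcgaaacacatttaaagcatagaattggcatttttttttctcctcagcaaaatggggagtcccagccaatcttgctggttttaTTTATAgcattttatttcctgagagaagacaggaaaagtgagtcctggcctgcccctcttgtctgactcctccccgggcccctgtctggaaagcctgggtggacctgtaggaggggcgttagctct
The window of Thbs4 was rich in G and C, at 70.8% against 46.8% for Thbs2 and a median of 52.4% over all windows. It held 3 GC boxes, a motif found in 32.7% of all windows and 48.9% of those of the members, and 2 MCAT elements that share a base, a motif found in 12.6% and 17% of them. The window of Thbs2 held 1 TATA box match, on the opposite strand, a motif found in 12.4% and 10.6%. The 2 genes therefore had no searched motif in common in these windows. The AP-1 site, which none of the 3 windows shown held, was found in 6.75% of all windows and 8.51% of those of the members.

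Most of the other matricellular genes did not pass. Of 6 genes of tenascins, periostin and the SPARC group, 1 passed, or 16.7% beside 9.60% of all genes. Sparcl1, or hevin, had 10.74 and 11.09 in visceral against 9.49 and 9.69 in parietal mesothelium, a difference of 1.32 (SE 0.14, adjusted p = 0.00326 from limma) or 2.5-fold higher, while Sparc, its collagen-binding relative, had 14.27 and 14.13 in visceral against 14.54 and 14.46 in parietal mesothelium and differed by -0.30 (-0.52 to -0.07). The interval of Sparc ends short of a 1.5-fold change. Tgfbi, a secreted protein induced by TGF-beta, differed by 0.32 (0.04 to 0.61), and its relative Postn, or periostin, by 0.28 (-0.61 to 1.16). Postn had 11.11 and 10.80 in visceral against 11.24 and 10.12 in parietal mesothelium, so that both visceral values fell between the parietal ones. Without parietal replicate 1 it was 0.84 and passed (adjusted p = 0.015), and without parietal replicate 2 it was -0.29. Tnxb, a tenascin of collagen-rich connective tissue, differed by -0.26 (-0.54 to 0.01) and Tnc, the tenascin of injured and developing tissue, by -0.42 (-0.92 to 0.08). Tnc passed only without parietal replicate 2 (-0.72, adjusted p = 0.0173).

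The matrilins, spondins and vitrin held the largest visceral excess. Vit, or vitrin, a protein with the von Willebrand A domains that matrilins also have, had 10.53 and 10.61 in visceral against 6.87 and 7.14 in parietal mesothelium. The difference of 3.57 (SE 0.12, adjusted p = 7.14e-05 from limma), or 11.8-fold higher, was the largest visceral excess among the members. Spon2, a spondin also known as mindin that takes part in innate immune recognition, had 10.81 and 10.55 in visceral against 8.73 and 8.06 in parietal mesothelium. Its parietal arrays lay 0.67 apart, yet the difference of 2.29 (SE 0.23, adjusted p = 0.00236 from limma), or 4.88-fold higher, was several times that gap. Spon1, the F-spondin of nerve tissue, had 9.31 and 9.34 in visceral against 9.72 and 9.18 in parietal mesothelium and an interval of -0.58 to 0.31. Matn2, the matrilin of many soft tissues, was higher in visceral mesothelium, at 8.84 and 8.74 in visceral against 8.32 and 8.01 in parietal mesothelium, with a difference of 0.63 (SE 0.13, adjusted p = 0.0274 from limma). It passed on leaving out parietal replicate 1 alone. It gave 0.57 without visceral replicate 1 (adjusted p = 0.112), 0.68 without visceral replicate 2 (adjusted p = 0.0795) and 0.47 without parietal replicate 2 (adjusted p = 0.0771). Matn4 differed by 0.03 (-0.23 to 0.29).

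For the 20 differences that passed, the arrays of the tissues did not overlap, so that leaving out an array could not turn their direction. Among them Lama4, Egflam, Vtn and Matn2 did not pass in every fit with an array left out. Conversely 7 members that had not passed did so on leaving out 1 array, or either of 2 for Lamb1, the others being Lama3, Lamc1, Fbn2, Mmrn1, Postn and Tnc. With 3 arrays the lone array of a tissue is assumed to vary like the other 2. The 32 members that did not pass were of different kinds. For 17 of them the 95% interval lay inside the 1.5-fold limits, among them Nid1, Nid2, Hspg2, Agrn, Thbs1 and Sparc. For the other 15 a change beyond 1.5-fold remained possible. A set of 5 of the 32, Lamb1, Lamc1, Ltbp2, Ltbp4 and Fbln2, passed the p threshold with a fold under the limit.

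**Figure D3:**
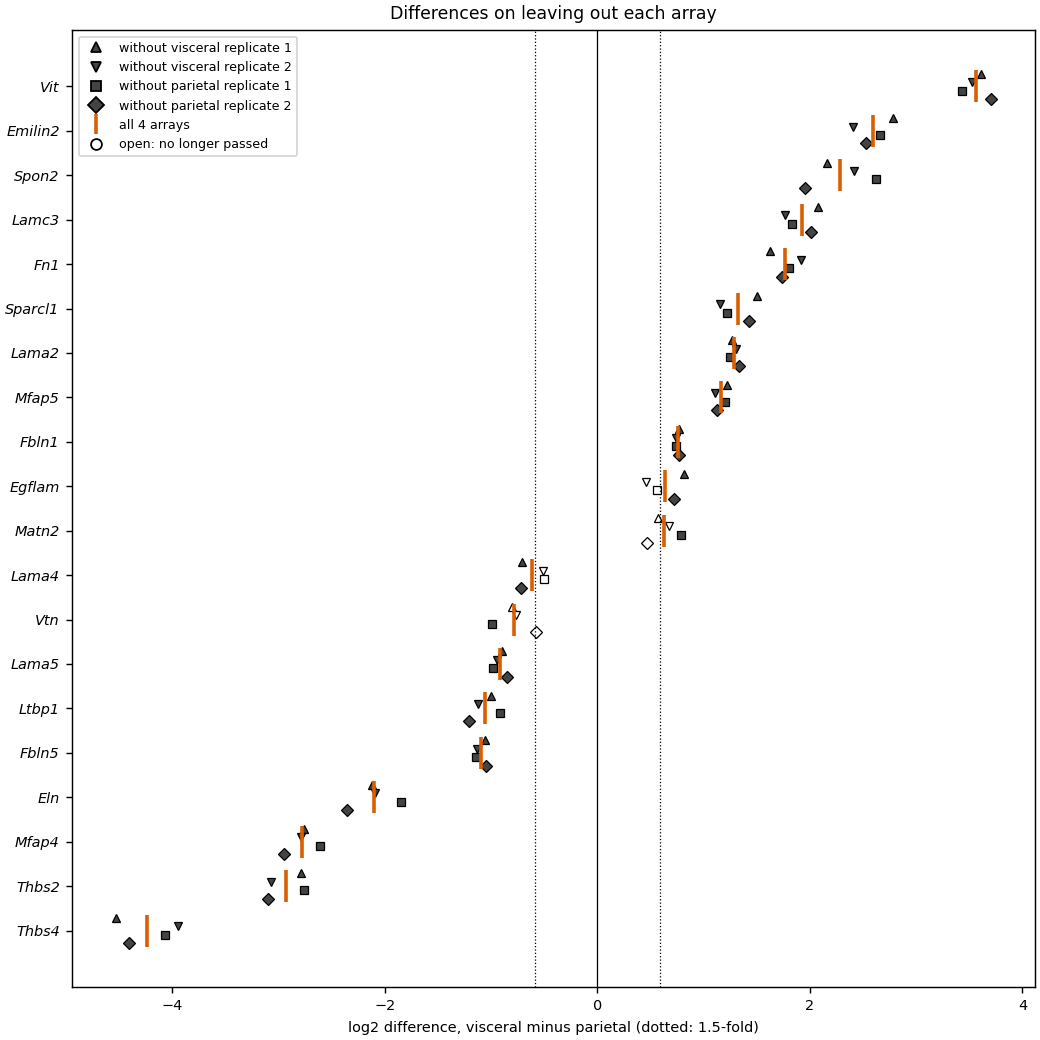
Log2 difference, visceral minus parietal (x axis), of the 20 genes that passed (y axis), with all 4 arrays (bar) and without each array (symbols). Open symbols no longer passed and occur for Egflam, Matn2, Lama4 and Vtn. No symbol crosses 0, which was fixed in advance because the arrays of the tissues do not overlap for these genes.

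Several groups held genes that passed on opposite sides. Lama2 and Lama5 among the laminin alpha chains, Mfap5 and Mfap4 among the microfibril-associated proteins, Fbln1 and Fbln5 among the fibulins, and Fn1 and Vtn each join a gene higher in visceral to one higher in parietal mesothelium. Among the laminin gamma chains Lamc3 passed at 1.92, while Lamc1 lay at -0.51. In the thrombospondins and the latent TGF-beta binding proteins no gene passed as higher in visceral mesothelium, and in the matrilin, spondin and vitrin group none passed as higher in parietal mesothelium. Differences between the effects of 2 genes were not tested.

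The partners of these proteins were read from lists of their receptors and processing enzymes. Of 12 receptors of laminins and basement membranes, 5 passed on the parietal side and 1 on the visceral side, or 50% beside 9.60% of all genes and 14.1% of those above the median signal, where all 12 lay. Their median difference was -0.42. Bcam, a receptor of the chain encoded by Lama5, had 10.41 and 10.53 in visceral against 12.25 and 12.35 in parietal mesothelium, a difference of -1.83 (SE 0.09, adjusted p = 0.000245 from limma), in the direction of Lama5. The laminin-binding integrin chain Itga7, best known from muscle, gave -0.89 (adjusted p = 0.0146), and Itga2, a chain of a collagen and laminin receptor, -0.93 (adjusted p = 0.0066). The 2 receptor components of agrin at the nerve-muscle synapse went opposite ways, Musk at -3.05 and Lrp4 at 1.30 (adjusted p = 0.000379 and 0.000682 from limma), beside the skeletal muscle markers that were higher in parietal mesothelium, whose part was not tested.

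Of 14 receptors of fibronectin, vitronectin and matricellular proteins, 3 passed in favour of visceral and 2 in favour of parietal mesothelium, or 35.7% beside 9.60% of all genes, with a median difference of 0.26. Itga4, an integrin chain that binds a variable segment of fibronectin and is common on leukocytes, had 8.39 and 8.39 in visceral against 7.16 and 6.95 in parietal mesothelium, a difference of 1.34 (SE 0.10, adjusted p = 0.000917 from limma), in the direction of Fn1. Itga9 and the thrombospondin receptor Cd36 were higher in visceral mesothelium by 0.64 and 0.81 (adjusted p = 0.00955 and 0.0062 from limma). Cd36 thus ran against Thbs2 and Thbs4, which were higher in parietal mesothelium. The vitronectin receptor chain Itgb5 and the epithelial chain Itgb6 had differences of -0.73 and -1.38 (adjusted p = 0.0136 and 0.00356 from limma) in favour of parietal mesothelium. The other 9 did not pass, among them the fibronectin receptor chain Itga5 at 0.29 (adjusted p = 0.248 from limma).

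Of 20 measured crosslinking and processing enzymes, 3 favoured visceral and 2 favoured parietal mesothelium, or 25% of the list beside 9.60% of all genes. Lox, the lysyl oxidase that crosslinks elastin and collagen, had 11.21 and 11.01 in visceral against 12.12 and 11.68 in parietal mesothelium, a difference of -0.79 (SE 0.17, adjusted p = 0.0308 from limma), in the direction of Eln. Pcolce, an enhancer of procollagen cleavage, gave -0.67 (adjusted p = 0.00804). F13a1, the transglutaminase chain that crosslinks fibrin and fibronectin and is made by macrophages, had 11.47 and 11.58 in visceral against 8.44 and 8.69 in parietal mesothelium, a difference of 2.96 (SE 0.11, adjusted p = 0.000121 from limma). Adamts17 and Adamtsl5, of a family with members that bind microfibrils, gave 0.96 and 0.69 (adjusted p = 0.00129 and 0.0112 from limma).

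Of 45 measured matrix glycoproteins outside the 54 symbols, 10 favoured parietal and 6 favoured visceral mesothelium. That is 35.6%, beside 9.60% of all genes and close to the 38.5% of the members. Pcolce was counted both here and among the enzymes. The parietal side was led by Cilp, a protein of cartilage and fibrous tissue, at -3.82, Fgl2 at -3.17, and the hemicentins Hmcn1 and Hmcn2, giant relatives of the fibulins, at -3.04 and -2.58. On the visceral side were Fndc1, with fibronectin type III domains, at 2.29, the olfactomedin-like Olfml2b and Olfml2a at 1.45 and 1.41, and Slit3, a guidance protein, at 1.00. These lists were chosen with results of the data known and a share is given as a description.

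**Figure D4:**
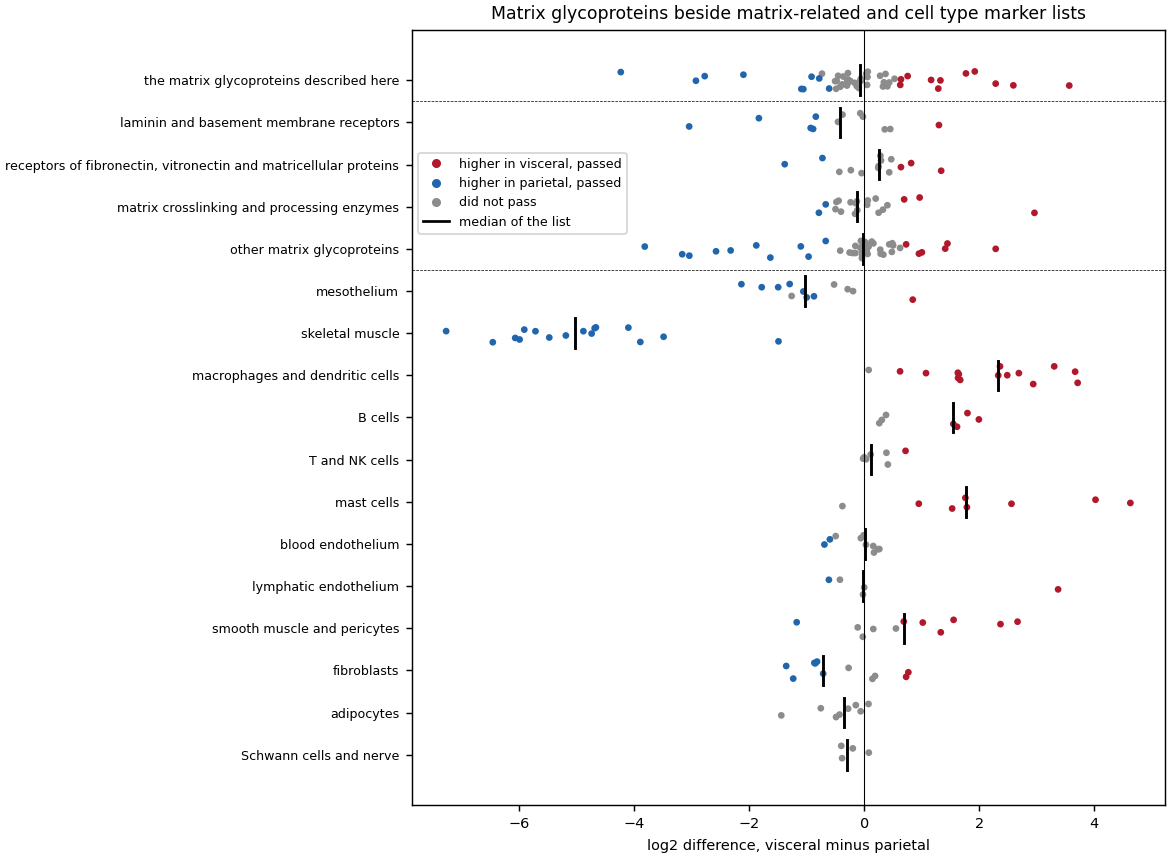
Log2 difference, visceral minus parietal (x axis), of the matrix glycoproteins, 4 lists of partners and 12 lists of cell type markers (y axis). Each point is 1 gene, red or blue where it passed and grey where not, and the black bar is the median of the list, which lies at -0.08 for the matrix glycoproteins, -5.04 for skeletal muscle and 2.33 for macrophages and dendritic cells.

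The cell types that make much of this matrix in connective tissue did not all move one way. Of 11 fibroblast markers, 6 passed on the parietal side and 2 on the visceral side, or 72.7% beside 9.60% of all genes. Their median difference was -0.72. Their summed linear signal was 63226 to 63332 on the visceral and 62794 to 69945 on the parietal arrays, ranges that overlap. Of 11 markers of smooth muscle and pericytes, 6 passed on the visceral side and 1 on the parietal side, or 63.6%. They had a median of 0.69 and sums of 9510 to 12145 on the visceral and 6034 to 6053 on the parietal arrays. Mesothelial markers had a median of -1.03 and sums of 48124 to 50556 on the visceral and 77569 to 81048 on the parietal arrays. The lists of B cells (1.55) and mast cells (1.77) had positive medians and those of T and NK cells (0.11), lymphatic endothelium (-0.02), adipocytes (-0.36) and Schwann cells (-0.29) medians nearer 0. The lymphatic list went both ways, with Lyve1, which macrophages can also express, at 3.37 and Pdpn at -0.62, both of which passed. No adipocyte marker passed, but parietal replicate 1 stood apart in this list. Retn had 6.95 and 7.08 in visceral against 9.46 and 7.46 in parietal mesothelium, and Adipoq 5.99 and 5.96 in visceral against 7.50 and 5.96 in parietal mesothelium. The summed linear signal of the list was 1825 and 2101 on the visceral arrays, and 3029 and 2073 on the parietal ones. The part of any of these cell types in the differences of the matrix genes was not tested, and the arrays do not tell which cells made the RNA.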

How the data were processed

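The authors hybridized total RNA to Affymetrix Mouse Gene 1.0 ST arrays and normalized them by RMA in Partek Genomics Suite, version 6.6 by the submitters' processing notes. The deposited values are on the log2 scale, with array medians of 7.38 to 7.41. The values were used unchanged. Of 35556 probes, 21789 had 1 symbol in the platform annotation, 1621 several and 12146 none, and symbols were updated through RefSeq (GRCm38.p6), which changed 0. Each of 19938 genes was read from its brightest probe, by mean over the arrays, and every member had 1 probe. The fit (limma 3.58.1, R 4.3.3) used all 4 arrays, the default prior and no block. The methods' test, one-way ANOVA, was an alternative, as were other thresholds, priors and normalizations, a filter on dim genes, all probes, the replicate number as a block, and the removal of each array in turn. The code was tested on simulated data. Members and lists were chosen with earlier results of these data known. Members are described in full where they passed. Of partner lists, up to 4 genes that passed in each direction are named, and of marker lists up to 2. Summed signals add 2 to the power of each log2 value. Promoters were read from a RefSeq table, leaving out the 50 bases after the start. Array batches were not analysed here.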

Additional observations from a re-analysis of the deposited data

How the results depend on the processing

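The count of 20 members that passed, 11 on the visceral and 9 on the parietal side, was the same with a trended or a robust prior. It was also the same with arrays centred on the median, with cyclic loess and with quantile normalization. Little could change there, because RMA had already equalized the arrays, whose medians ran from 7.38 to 7.41. The count was unchanged with the mean of a gene's probes, where the members' values could not change because each member had 1 probe. It was 16 (9 and 7) when all 35556 probes were adjusted together, where Lama4, Egflam, Vtn and Matn2 no longer passed, 18 (10 and 8) of 42 members among genes above the median signal, and 25 (13 and 12) without the fold limit. Against a fold of 1.5, limma's treat left 13, 8 on the visceral and 5 on the parietal side, without Lama4, Lama5, Egflam, Vtn, Ltbp1, Fbln1 and Matn2. The methods' t-test after adjustment passed 0 members and 0 in either direction, as it passed 0 of all 19938 genes, and 22 members had an unadjusted p under 0.05 in it against 33 in limma. On leaving out each array the count was 18 to 22, with 10 to 12 higher in visceral and 7 to 12 in parietal mesothelium. Members that did not pass changed sign there, with ranges of Lamb3 -0.14 to 0.023, Nid1 -0.075 to 0.17, Hspg2 -0.067 to 0.18, Npnt -0.75 to 0.019, Fbn2 -1.14 to 0.23, Fbln7 -0.19 to 0.10, Thbs1 -0.16 to 0.28, Postn -0.29 to 0.84, Matn4 -0.083 to 0.15 and Spon1 -0.40 to 0.14. No member changed sign under any other alternative. The labels give both tissues replicates 1 and 2 without saying that a number marks a shared animal or day. Deviations of same-numbered arrays from their tissue means had r = 0.356 across genes, and with the replicate block 21 members passed, 11 and 10, the added one being Lama3 (adjusted p = 0.0149). Array 1 lay above array 2 in both tissues for 24 members and below it for 14. Small differences are limited by the 2 arrays per tissue.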
